A study of Mus musculus with 44 samples.

Results

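The genes examined were periostin, the tenascins, the thrombospondins and Sparc, a set of 10 genes that encode matricellular proteins. They were taken by name (Postn, Tnc, Tnn, Tnxb, Thbs1, Thbs2, Thbs3, Thbs4, Comp and Sparc) from the 43411 Ensembl genes of the deposited table, through the symbols of the mouse annotation. All 10 were found, and all 10 passed the filter on low values, which 17037 genes passed in all. RNA-seq had been performed on back skin biopsies of 44 wild-type female C57Bl/6 mice in 5 groups, to follow gene expression while bleomycin-induced skin fibrosis developed and after the injections had stopped. Injections into the skin of the back began at an age of 8 weeks and were given daily. The saline group (n = 10) received saline. The 2-week and 4-week bleomycin groups (n = 10 each) received 100 µL of bleomycin for 2 or 4 weeks, at the 1 U/mL that the labels give. The study's own descriptions do not all give the same concentration. The 6-week recovery group (n = 6) and the 10-week recovery group (n = 8) received bleomycin for 4 weeks and were then left untreated for 6 or 10 weeks. There was 1 saline group, and the age at which its mice were sampled is not given in the sources used here. Time since the start and age at sampling therefore cannot be told apart.

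Matricellular proteins are secreted into the extracellular matrix but are not its main building blocks. They bind collagen, fibronectin, growth factors and cell surface receptors, and they are known for their roles in wound healing, scarring and fibrosis. Thrombospondin-1, the product of Thbs1, can activate latent TGF-beta, and thrombospondin-1 and thrombospondin-2 inhibit the growth of blood vessels through the receptors CD36 and CD47. Thrombospondin-3, thrombospondin-4 and cartilage oligomeric matrix protein (Comp) form the other branch of the family and are found in tendon, muscle and cartilage among other tissues. Tenascin-C (Tnc) appears at sites of injury and binds fibronectin and integrins, tenascin-N (Tnn) is also called tenascin-W, and tenascin-X (Tnxb) associates with collagen fibrils and gives skin its tensile strength. Periostin (Postn) assists collagen crosslinking, and Sparc binds collagen and takes part in the assembly of fibrils.

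In the GRCm38 assembly (mm10, GENCODE M21 annotation), Thbs4 lies on chromosome 13 from 92751590 to 92794818 on the minus strand. Thbs3 lies on chromosome 3 from 89215180 to 89226837 on the plus strand, and Postn on the same chromosome from 54361109 to 54391037, also on the plus strand. Tnxb spans 34670535 to 34719815 on the plus strand of chromosome 17, and Thbs2 spans 14665500 to 14694235 on the minus strand of that chromosome. Tnc lies on chromosome 4 (63959785 to 64047015, minus), Tnn on chromosome 1 (160085029 to 160153580, minus), Thbs1 on chromosome 2 (118111876 to 118127133, plus), Comp on chromosome 8 (70373558 to 70382066, plus) and Sparc on chromosome 11 (55394500 to 55423183, minus). The 10 genes thus lie on 8 chromosomes. Exons of Thbs3 overlap Mtx1, a protein-coding gene on the opposite strand, over 318 bases or 6.59% of the exon bases of Thbs3. Whether the counting used strand is not given in the sources used here, so reads from those bases cannot be assigned with certainty. Tnc and Thbs1 share 176 and 208 exon bases with noncoding genes on the opposite strand, and Tnxb shares 3 with a pseudogene.

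RefSeq promoter sequences of the GRCm38.p6 build were matched for 8 of the 10 genes, with 10 start sites in all. The window searched ran from 250 bases before to 50 bases after each start site. The 250 bases before the start are shown for Thbs4, Thbs3 and Tnxb, because the levels of these genes moved together in the comparisons below, and for Tnc, because it moved in the opposite direction at 4 weeks of bleomycin. Each is written in the direction of transcription. Capitals mark matches, on either strand, to TATAAA (known from the TATA box), GGGCGG (the GC box, which Sp1 binds), CAGACA (the core of SMAD binding sites), CATTCC (the core of TEAD binding sites) or TGANTCA (the AP-1 site).
Thbs4, chr13:92794819-92795068, minus strand: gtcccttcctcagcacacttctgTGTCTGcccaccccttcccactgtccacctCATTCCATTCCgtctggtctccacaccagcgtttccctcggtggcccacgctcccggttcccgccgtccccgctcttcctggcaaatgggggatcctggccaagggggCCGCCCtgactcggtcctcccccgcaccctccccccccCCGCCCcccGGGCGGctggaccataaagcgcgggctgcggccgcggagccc
Thbs3, chr3:89214930-89215179, plus strand: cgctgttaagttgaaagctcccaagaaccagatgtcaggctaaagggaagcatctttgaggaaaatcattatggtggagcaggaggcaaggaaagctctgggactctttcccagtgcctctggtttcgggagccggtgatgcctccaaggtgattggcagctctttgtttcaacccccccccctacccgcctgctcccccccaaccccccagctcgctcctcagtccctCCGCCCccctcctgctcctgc
Tnxb, chr17:34670285-34670534, plus strand: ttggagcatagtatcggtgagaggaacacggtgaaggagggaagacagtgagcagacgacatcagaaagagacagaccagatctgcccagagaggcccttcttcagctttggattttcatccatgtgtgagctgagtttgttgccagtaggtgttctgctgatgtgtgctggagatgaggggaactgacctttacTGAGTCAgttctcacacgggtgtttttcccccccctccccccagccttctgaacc
Tnc, chr4:64047016-64047265, minus strand: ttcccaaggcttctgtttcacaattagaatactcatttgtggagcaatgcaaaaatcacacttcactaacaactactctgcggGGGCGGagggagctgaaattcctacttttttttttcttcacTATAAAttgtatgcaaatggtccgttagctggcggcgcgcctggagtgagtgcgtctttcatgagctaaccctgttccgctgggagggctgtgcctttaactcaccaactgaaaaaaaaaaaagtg

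The Thbs4 window held 3 matches to GGGCGG, 1 to CAGACA and 2 to CATTCC that overlap each other. The Thbs3 window held 1 match to GGGCGG, which begins 21 bases before the start site, and the Tnxb window held 1 match to TGANTCA, which begins 55 bases before it. The Tnc window held TATAAA and GGGCGG at 126 and 167 bases before the start, and CAGACA at base 9 after it, outside the stretch shown. None of the 5 motifs was present in all 3 of the windows of Thbs4, Thbs3 and Tnxb. Among 32851 promoters of the same length, 35.7% held GGGCGG, 21% CAGACA, 14.7% CATTCC, 13.6% TATAAA and 7.81% TGANTCA. A match is a description of these letters and says nothing of whether a factor binds there.

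The values are normalized counts, the reads of a gene in a mouse divided by a size factor for that mouse. The reads on genes recovered from them ranged from 8509094 to 15285577 per mouse, with group medians between 9523976 in saline skin and 12905996 after 10 weeks of recovery. Keratinocyte markers were abundant in all 44 mice, with a summed normalized count of 116198 to 247366 over 6 genes. Saline mouse 1 and mouse 2 of the 2-week bleomycin group had the lowest median correlations with the other mice of their group (0.9421 and 0.9378), and calls that change without them are given beside the result. Mouse 4 of the 10-week recovery group (0.9473) and saline mouse 6 (0.9493) came close to them. No pair of mice in a group agreed within sampling noise. In whole skin, fewer cells of a type and less RNA per cell cannot be told apart.

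Levels per kilobase of exon spanned a wide range in saline skin. Sparc was the most abundant, with a median of 5179 normalized counts per kilobase (range 3063 to 8023), and Postn followed with 731 (527 to 802). Thbs2 had a median of 339, Tnxb 327, Thbs1 188, Thbs4 154, Thbs3 139 and Tnc 88.8 normalized counts per kilobase. Tnn (12.2, from 3.07 to 17.4) and Comp (8.33, from 3.21 to 11.8) were the least abundant. In this order the ranges of the saline mice were separate between Sparc and Postn, between Postn and Thbs2, and between Tnc and Tnn. The ranges of all other neighbours overlapped. In the 4-week bleomycin group the order differed in its middle part. Thbs1 (315 per kilobase, from 192 to 405) stood above Tnxb (137, at most 163), and Tnc (126, from 67.2 to 239) stood above Thbs3 (48.9, from 42.6 to 64.4), with no overlap in either case.

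**Figure D1:**
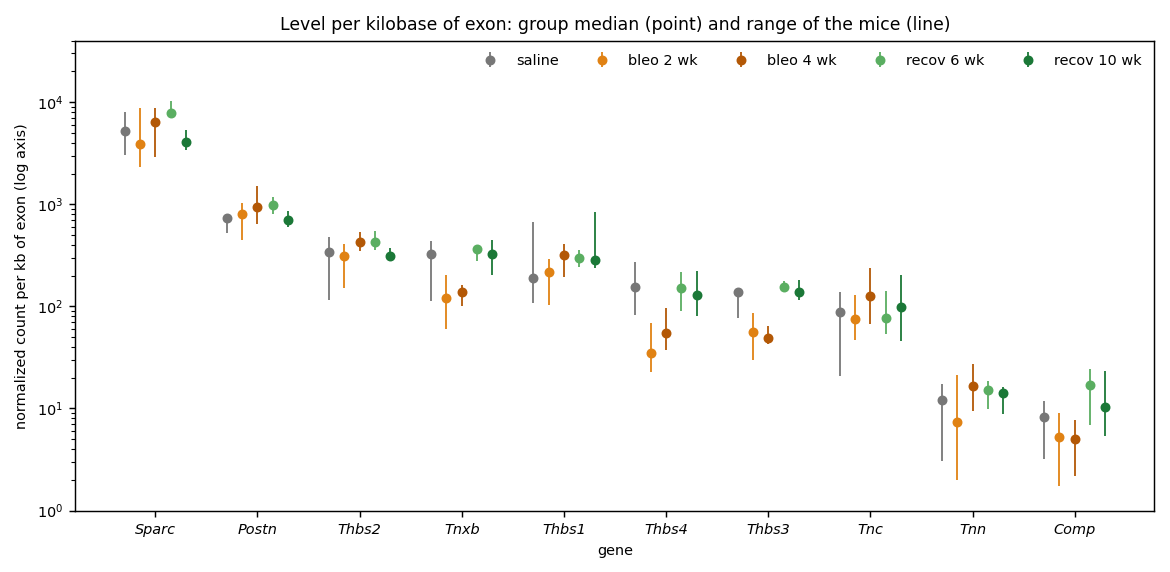
Level of each gene per kilobase of exon (log axis, normalized count per kilobase), with a point for the median of each group and a line for the range of its mice. Sparc lies above and Tnn and Comp lie below the other genes in all 5 groups, and Tnxb, Thbs4 and Thbs3 lie lower in both bleomycin groups than in the other groups.

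Of the 10 genes, Tnxb, Thbs3 and Thbs4 were lower in skin injected with bleomycin, and Tnc and Thbs1 were higher at 4 weeks. Genes were called at a fold change above 1.5 with an adjusted p below 0.05 by limma, a linear model fitted to all genes on the log2(normalized count + 1) scale. By this rule 3 genes were lower (Tnxb, Thbs3 and Thbs4) and 0 higher at 2 weeks of bleomycin (0 higher also at an unadjusted p under 0.05, by edgeR and by DESeq2), where 16.7% of all 17037 genes were called and 7.43% were called lower. At 4 weeks 4 were lower (Tnxb, Thbs3, Thbs4 and Comp) and 2 higher (Tnc and Thbs1), beside 17.9% of all genes, 7.37% lower and 10.5% higher. After 6 weeks of recovery 1 was higher (Sparc), beside 5.04% of all genes called and 3.33% called higher, and after 10 weeks 1 was higher (Thbs1), beside 3.05% and 2.05%. The shares of the set after recovery rest on a single gene each. Groups that did not overlap were found for Thbs4 at 2 weeks, where 1.33% of all genes were apart in the lower direction, for Thbs3 at 4 weeks (2.21%) and for Postn after 6 weeks of recovery, where 1.41% were apart in the higher direction. The median log2 fold change of the 10 genes was -0.40, 0.39, 0.50 and 0.15 in the 4 comparisons in this order, beside 0.00 for all genes in each. These comparisons share the saline mice, so they are not independent of each other.

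The thrombospondins Thbs4 and Thbs3 were lower in bleomycin-injected skin and were within or near the saline range after recovery. Thbs4 encodes a thrombospondin of tendon and muscle. Its normalized count ranged from 270 to 903 in the 10 saline mice (median 506), from 75.4 to 224 after 2 weeks of bleomycin (median 114) and from 122 to 317 after 4 weeks (median 182). Every mouse of the 2-week group was below every saline mouse, and after 4 weeks 9 of 10 mice were. Thbs4 ranged from 297 to 720 after 6 weeks of recovery (median 496) and from 266 to 737 after 10 weeks (median 422), and both ranges overlapped that of saline. Against saline, the log2 fold change was -2.14 (SE 0.20) at 2 weeks of bleomycin, a level 4.42-fold lower, with a limma adjusted p of 1.24e-11. At 4 weeks it was -1.62 (SE 0.20, adjusted p = 1.84e-08). After recovery Thbs4 was not called, with log2 fold changes of -0.17 (95% interval -0.64 to 0.31) at 6 weeks and -0.36 (-0.79 to 0.08) at 10 weeks.

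Thbs3, which encodes a thrombospondin with a role in skeletal development, ranged from 373 to 716 normalized counts in saline skin (median 669). It ranged from 144 to 415 at 2 weeks of bleomycin (median 268) and from 205 to 311 at 4 weeks (median 236). At 2 weeks 9 of 10 mice were below every saline mouse, and at 4 weeks all 10 were, so the groups did not overlap. After 6 weeks of recovery Thbs3 ranged from 707 to 856 (median 748), with 5 of 6 mice above every saline mouse, and after 10 weeks it ranged from 558 to 880 (median 671). The log2 fold change against saline was -1.29 (SE 0.13, limma adjusted p = 1.59e-10) at 2 weeks and -1.33 (SE 0.13, adjusted p = 6.99e-11) at 4 weeks of bleomycin. After recovery it was 0.33 (95% interval 0.01 to 0.64, adjusted p = 0.182) at 6 weeks and 0.16 (-0.13 to 0.45) at 10 weeks. Mtx1, which shares exon bases with Thbs3, had log2 fold changes of -0.00 (SE 0.10) and -0.01 (SE 0.10) in the same comparisons.

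Comp, the thrombospondin of cartilage and tendon, was expressed at a low level and gave the least certain of these changes. It ranged from 9.54 to 35.2 normalized counts in saline skin (median 24.7), from 5.14 to 27 at 2 weeks of bleomycin (median 15.5) and from 6.41 to 23 at 4 weeks (median 14.8). After recovery it ranged from 20.2 to 71.5 at 6 weeks (median 50.2) and from 15.8 to 68.9 at 10 weeks (median 30.9). The groups overlapped in all 4 comparisons with saline. Comp fell at 4 weeks of bleomycin, with a log2 fold change of -0.71 (SE 0.26, limma adjusted p = 0.0268), a call that was lost when saline mouse 6 or mouse 2 of the 4-week group was left out (highest adjusted p 0.0654). At 2 weeks it was -0.63 (SE 0.26, adjusted p = 0.0512), which missed the threshold but passed it without the pair of mice with the lowest correlations (-0.75, adjusted p = 0.0213) and when any of 10 single mice was left out. After 6 weeks of recovery Comp stood at 0.86 (SE 0.30, adjusted p = 0.0567), with adjusted p-values of 0.0232 by edgeR and 0.0151 by DESeq2 on recovered reads.

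Tnxb, which encodes tenascin-X, was the one tenascin that fell. It ranged from 1389 to 5282 normalized counts in saline skin (median 3991), from 726 to 2468 at 2 weeks of bleomycin (median 1465) and from 1239 to 1986 at 4 weeks (median 1669). The lowest saline value belonged to saline mouse 1, so the ranges overlapped, but all 20 bleomycin mice were below the saline median. After recovery Tnxb ranged from 3403 to 4722 at 6 weeks (median 4411) and from 2462 to 5416 at 10 weeks (median 3987). The log2 fold change against saline was -1.36 (SE 0.18, limma adjusted p = 9.48e-08) at 2 weeks and -1.12 (SE 0.18, adjusted p = 4.33e-06) at 4 weeks. After recovery Tnxb was at 0.23 (95% interval -0.20 to 0.66) and 0.15 (-0.25 to 0.54), which was not called. The calls of Thbs4, Thbs3 and Tnxb at 2 and 4 weeks were kept under all 10 alternatives tried and when any single mouse was left out.

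**Figure D2:**
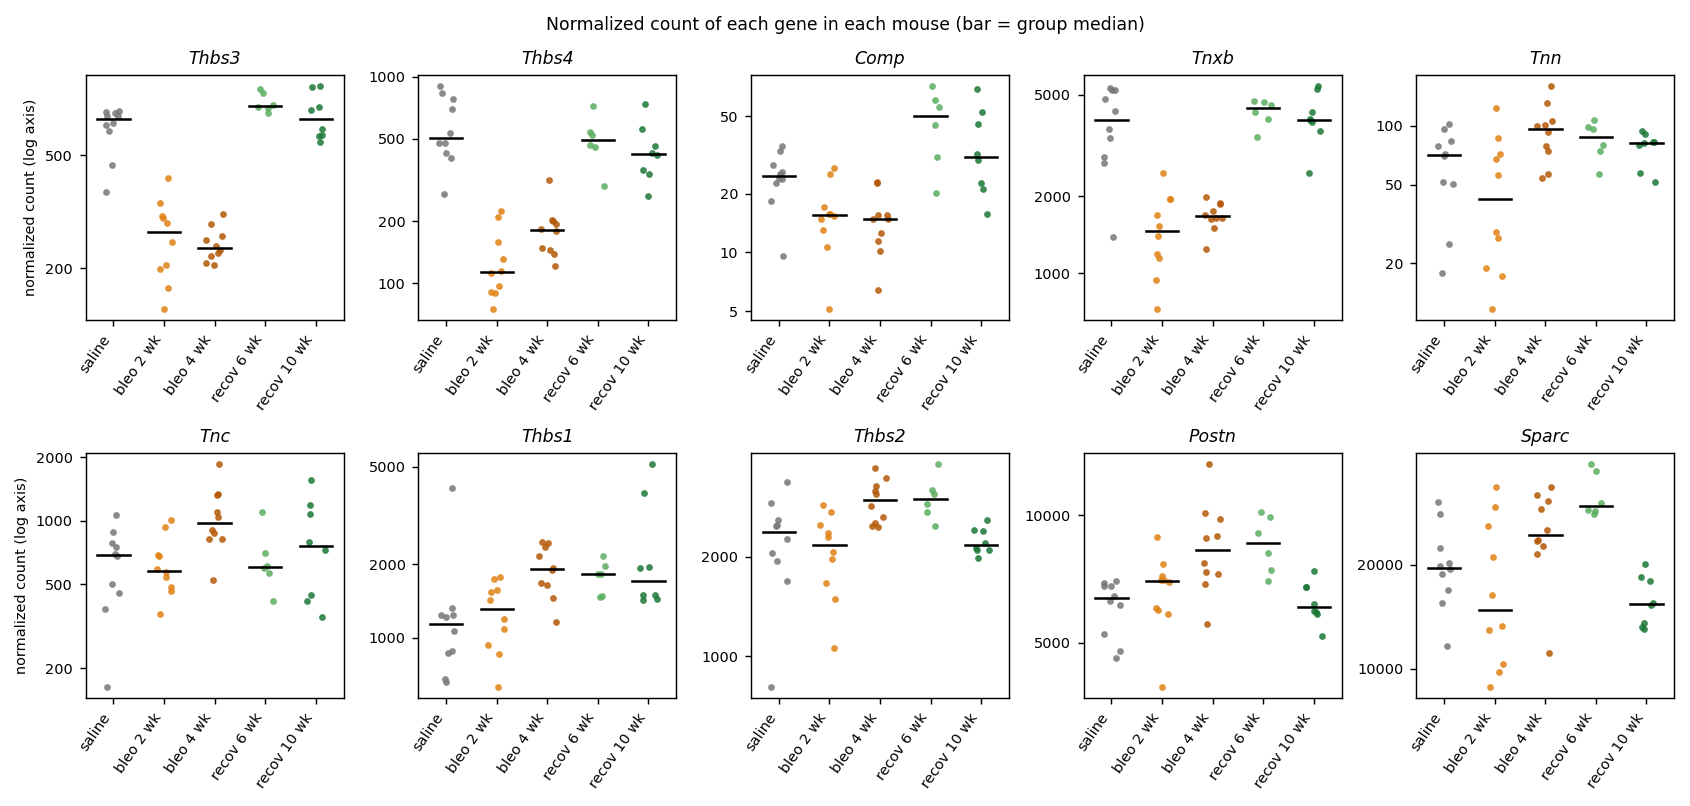
Normalized count (log axis) of each gene in each of the 44 mice, by group, with a bar for the group median. For Thbs4 all 10 mice at 2 weeks of bleomycin, and for Thbs3 all 10 mice at 4 weeks, lie below the 10 saline mice, while Postn of all 6 mice after 6 weeks of recovery lies above the saline mice.

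Tnc and Thbs1 passed the threshold in the higher direction at 4 weeks of bleomycin. At 2 weeks neither did. Tnc ranged from 163 to 1068 normalized counts in saline skin (median 690), from 363 to 1009 at 2 weeks (median 581) and from 522 to 1861 at 4 weeks (median 976). It ranged from 416 to 1102 after 6 weeks of recovery (median 603) and from 352 to 1567 after 10 weeks (median 763). The groups overlapped in every comparison. Tnc rose at 4 weeks against saline, by a log2 fold change of 0.81 (SE 0.26, limma adjusted p = 0.0127), and was 0.08 (SE 0.26, adjusted p = 0.846) at 2 weeks. The direct comparison of 4 with 2 weeks gave 0.73 (SE 0.26, adjusted p = 0.088), so a difference between the time points was not established for Tnc, although a fit with only those groups and DESeq2 gave adjusted p-values of 0.0372 and 0.038.

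Thbs1 ranged from 661 to 4100 normalized counts in saline skin (median 1145), and saline mouse 8 held the highest value. It ranged from 629 to 1769 at 2 weeks of bleomycin (median 1310), from 1163 to 2462 at 4 weeks (median 1915), from 1472 to 2155 after 6 weeks of recovery (median 1823) and from 1432 to 5142 after 10 weeks (median 1711). All mice of the 4-week, 6-week recovery and 10-week recovery groups were above the saline median, although every group overlapped the saline range. At 4 weeks of bleomycin the log2 fold change was 0.71 (SE 0.24, limma adjusted p = 0.0159), but edgeR and DESeq2 on recovered reads gave adjusted p-values of 0.0933 and 0.08. After 6 weeks of recovery it was 0.63 (SE 0.27, adjusted p = 0.137), and 0.84 (adjusted p = 0.0173) without saline mouse 8. After 10 weeks it was 0.86 (SE 0.25, adjusted p = 0.0322), and this call was lost with no filter on low values (adjusted p = 0.0523), with only the groups compared (0.136) and with edgeR (0.056). It was also lost when saline mouse 2, saline mouse 6, or mouse 6 or 8 of the 10-week recovery group was left out, with a highest adjusted p of 0.0886.

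Of Thbs2, Postn, Tnn and Sparc, only Sparc was called against saline in the limma fit with all groups, and only after 6 weeks of recovery. Thbs2 encodes thrombospondin-2, whose absence is known to give irregular collagen fibrils in mouse skin. It ranged from 805 to 3359 normalized counts in saline skin (median 2371), from 1057 to 2872 at 2 weeks (median 2177), from 2463 to 3724 at 4 weeks (median 2969), from 2483 to 3820 after 6 weeks of recovery (median 2993) and from 1987 to 2582 after 10 weeks (median 2165). Its log2 fold change at 4 weeks, 0.47 (SE 0.16, limma adjusted p = 0.0196), passed the test but not the fold change threshold of 1.5. When single mice were left out, the adjusted p at 4 weeks rose to at most 0.0602. The corresponding log2 fold change after 6 weeks of recovery was 0.50 (SE 0.19, adjusted p = 0.0782).

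Postn ranged from 4588 to 6980 normalized counts in saline skin (median 6361), from 3921 to 8875 at 2 weeks of bleomycin (median 6987) and from 5522 to 13240 at 4 weeks (median 8277). It ranged from 6989 to 10189 after 6 weeks of recovery (median 8623) and from 5172 to 7404 after 10 weeks (median 6062). All 6 mice after 6 weeks of recovery were above every saline mouse, and 8 of 10 mice were at 4 weeks of bleomycin. Its log2 fold changes were 0.47 (SE 0.12, limma adjusted p = 0.00172) at 4 weeks of bleomycin and 0.50 (SE 0.14, adjusted p = 0.0162) after 6 weeks of recovery. Both passed the test and both were under 1.5-fold (1.38-fold and 1.42-fold). When single mice were left out, the limma adjusted p rose to at most 0.00589 at 4 weeks and 0.0638 after 6 weeks of recovery. The log2 fold change was 0.11 (SE 0.12, adjusted p = 0.496) at 2 weeks of bleomycin and 0.04 (SE 0.13, adjusted p = 0.915) after 10 weeks of recovery, with a 95% interval of -0.21 to 0.30 for the latter.

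Tnn ranged from 17.9 to 102 normalized counts in saline skin (median 71), from 11.7 to 123 at 2 weeks of bleomycin (median 42.4) and from 54.5 to 160 at 4 weeks (median 96.3). After recovery it ranged from 56.9 to 107 at 6 weeks (median 87.9) and from 51.8 to 94.4 at 10 weeks (median 82.2). No comparison of Tnn with saline passed the threshold in the limma fit with all groups. The 2-week group had the widest spread, with a coefficient of variation of 71.7% against 19.5% to 43.5% in the other groups. Its log2 fold changes against saline were -0.53 (SE 0.31) at 2 weeks and 0.65 (SE 0.31, limma adjusted p = 0.0966) at 4 weeks.

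Sparc ranged from 11603 to 30393 normalized counts in saline skin (median 19617), from 8835 to 33531 at 2 weeks of bleomycin (median 14789) and from 11088 to 33508 at 4 weeks (median 24335). After 6 weeks of recovery it ranged from 28095 to 39132 (median 29502) and after 10 weeks from 12981 to 20070 (median 15360). All 6 mice after 6 weeks of recovery were above the saline median and 2 were above every saline mouse. The log2 fold change after 6 weeks was 0.69 (SE 0.23, limma adjusted p = 0.0491). This call was at the edge of the threshold: it was lost with no filter on low values (adjusted p = 0.0821), with edgeR (0.0524) and without the pair of mice with the lowest correlations (0.0533), and leaving out any of 32 of the 44 mice also ended it, with a highest adjusted p of 0.142.

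**Figure D3:**
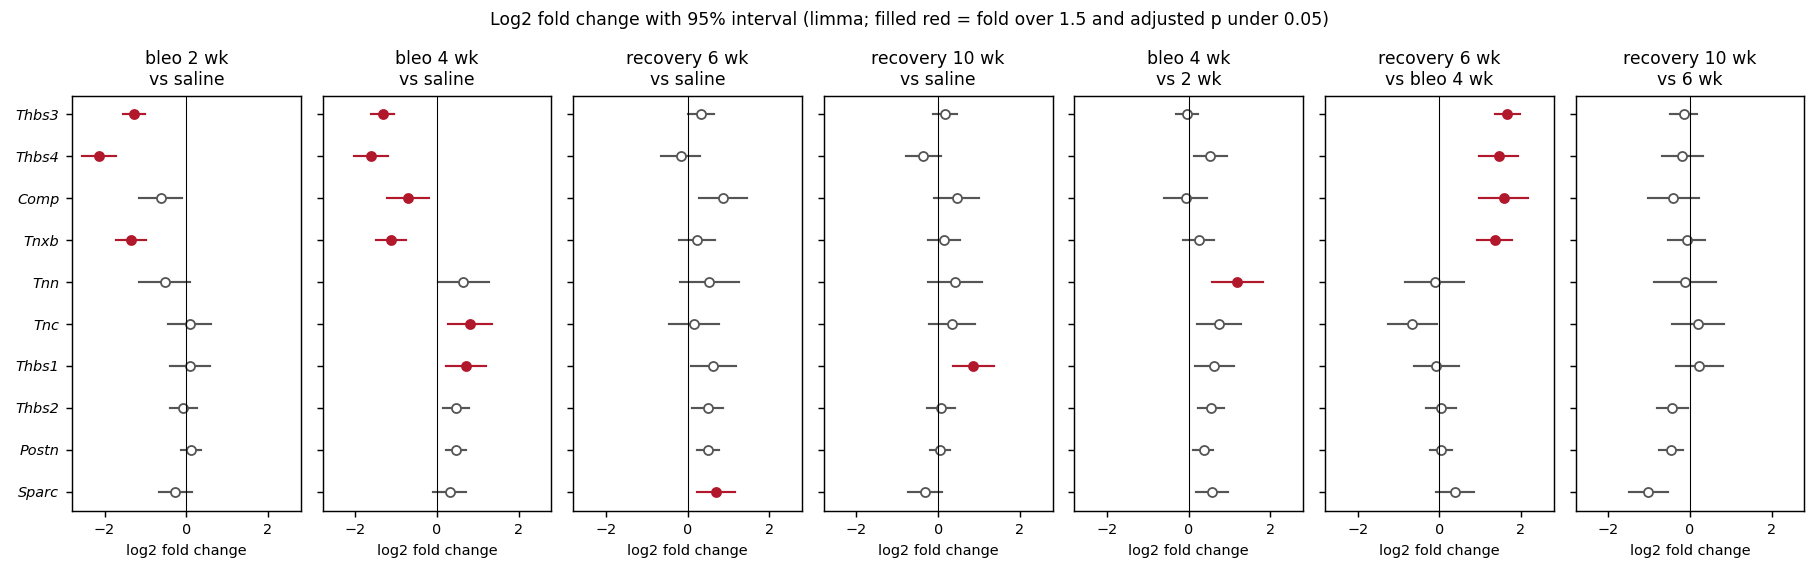
Log2 fold change of each gene in the 7 comparisons, with its 95% interval (limma), where filled red points mark a fold change above 1.5 with an adjusted p below 0.05. Thbs3, Thbs4 and Tnxb are red on the lower side in both comparisons of bleomycin with saline, and with Comp on the higher side in the comparison of 6 weeks of recovery with 4 weeks of bleomycin.

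The direct comparison of 6 weeks of recovery with 4 weeks of bleomycin asked which levels differed once the injections had stopped. Thbs3, Thbs4, Tnxb and Comp were higher after recovery, 4 of 10 genes, where 11.9% of all genes were called and 4.8% were called higher. The log2 fold change was 1.66 (SE 0.16, limma adjusted p = 3.69e-11) for Thbs3 and 1.35 (SE 0.21, adjusted p = 4.52e-06) for Tnxb. For both, all 6 recovery mice were above all 10 bleomycin mice, as was so for 4.44% of all genes. Thbs4 differed by 1.45 (SE 0.24, adjusted p = 7.14e-06), with 5 of 6 mice above every mouse of the 4-week group, and Comp by 1.58 (SE 0.30, adjusted p = 8.24e-05). These 4 calls were kept when any single mouse was left out. The other 6 genes were not called. The intervals of Postn (-0.24 to 0.31), Thbs2 (-0.34 to 0.41) and Thbs1 (-0.63 to 0.47) included 0, and that of Thbs1 was wide. Tnc differed by -0.66 (SE 0.30, adjusted p = 0.107), which a fit with only these groups called (adjusted p = 0.0266).

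Between 2 and 4 weeks of bleomycin, Tnn was the only member called, beside 2.35% of all genes and 1.49% in the higher direction. It was higher at 4 weeks by a log2 fold change of 1.18 (SE 0.31, limma adjusted p = 0.0177), a 2.27-fold difference, and the adjusted p was 0.0595 with only the groups compared. Thbs2 was higher by 0.54 (SE 0.16, adjusted p = 0.0358), under the fold change threshold. Sparc differed by 0.57 (SE 0.20, adjusted p = 0.0802), Thbs1 by 0.62 (SE 0.24, adjusted p = 0.112) and Postn by 0.36 (SE 0.12, adjusted p = 0.0679). With only the groups compared, Thbs1 (adjusted p = 0.0489) and Tnc (0.0372) were called in place of Tnn. Thbs3 differed by -0.04 (95% interval -0.31 to 0.23) and Comp by -0.08 (-0.60 to 0.44).

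Between 6 and 10 weeks of recovery 0 members were called by limma, beside 0.088% of all genes, and 3 had an unadjusted p under 0.05, namely Sparc, Postn and Thbs2. Sparc was lower at 10 weeks in all 8 mice than in any of the 6 mice at 6 weeks, as was so for 0.587% of all genes. Its log2 fold change was -1.02 (SE 0.24, adjusted p = 0.0678). DESeq2 on recovered reads called Sparc (adjusted p = 0.00971), as did the fit with only these groups (0.00113) and the fit without the pair of mice with the lowest correlations (0.0323), while edgeR called 0 members. Postn differed by -0.46 (SE 0.14, adjusted p = 0.217), with 7 of 8 mice below every mouse at 6 weeks.

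Markers of other cells moved in the same comparisons as Tnxb, Thbs3, Thbs4 and Comp. Over all 17037 tested genes, 1585 were called higher and 1266 lower at 2 weeks of bleomycin, and 1797 and 1256 at 4 weeks. Of 8 fibroblast markers 6 were lower at 2 weeks and 4 at 4 weeks of bleomycin. Pi16 and Dpt, which mark fibroblasts of the connective tissue, had log2 fold changes of -2.67 (SE 0.23) and -1.50 (SE 0.13) at 2 weeks and of -2.99 and -1.46 at 4 weeks. Other markers differed from these. Lum was at 0.30 (SE 0.12) and 0.27 (SE 0.12) at 2 and 4 weeks, and was not called. Col1a1 and Col1a2 were called lower at 2 weeks but were at 0.30 (SE 0.24) and 0.18 (SE 0.23) at 4 weeks. Pdgfra was called lower at both times and also after 6 and 10 weeks of recovery (-1.02 and -0.93). Of the 8, 0 were called higher in any comparison with saline. The summed normalized count of the 8 ranged from 79154 to 170758 in saline skin, from 39403 to 122119 at 2 weeks, from 67609 to 165615 at 4 weeks, from 105030 to 173322 after 6 weeks of recovery and from 63643 to 103735 after 10 weeks. All 7 tested markers of the growing hair follicle were lower at both bleomycin time points. Their sum had a median of 38582 (2019 to 204819) in saline skin, 146 (116 to 1835) at 2 weeks, 176 (147 to 4559) at 4 weeks, 10403 (221 to 95479) after 6 weeks of recovery and 86111 (1363 to 156205) after 10 weeks. Of 5 macrophage markers 3 were higher at 2 and at 4 weeks, and their sum ranged from 7819 to 20997 in saline skin, from 19032 to 35869 at 2 weeks, from 17681 to 32870 at 4 weeks, from 11837 to 17495 after 6 weeks of recovery and from 9621 to 14728 after 10 weeks. The part of these markers in the changes of Tnxb, Thbs3, Thbs4 and Comp was not tested.

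Tissues known for Thbs4, Comp and Thbs1 were looked at in the same way. Of 8 skeletal muscle markers 0 were called at 2 weeks, when Thbs4 was lowest, and 1 was higher and 1 lower at 4 weeks. Their sum ranged from 81309 to 264211 in saline skin, from 129469 to 281020 at 2 weeks, from 138934 to 233724 at 4 weeks, from 176754 to 321978 after 6 weeks of recovery and from 174145 to 364650 after 10 weeks. Of 6 tendon and fascia markers, 5 of them tested, 2 were lower at 2 weeks (Tnmd at -1.08 and Fmod at -0.72) and 0 at 4 weeks, and 2 were higher after 6 weeks of recovery. Their sum ranged from 764 to 1382 in saline skin, from 382 to 1236 at 2 weeks, from 738 to 2121 at 4 weeks, from 1515 to 2193 after 6 weeks of recovery and from 892 to 1764 after 10 weeks. The 4 cartilage markers, 3 of them tested, summed to at most 84.9 normalized counts in any mouse. At 2 and at 4 weeks 2 of them were higher (Col2a1 and Matn1) and 1 lower (Acan), with medians of the sum of 36.2 in saline skin, 26.4 and 44.7 under bleomycin, and 12.5 and 16.9 after recovery. Of 4 platelet markers, 3 of them tested, 1 was higher at 2 and at 4 weeks, Ppbp. Its medians were low, at 1.22 in saline skin, 3.89 at 2 weeks and 4.89 at 4 weeks. The sum of the 4 ranged from 415 to 895 in saline skin, from 358 to 2530 at 2 weeks, from 606 to 1052 at 4 weeks, from 459 to 828 after 6 weeks of recovery and from 440 to 669 after 10 weeks. The part of these markers in the levels of Thbs4, Comp and Thbs1 was not tested.

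Related genes were counted over lists made from knowledge of the family, but chosen with earlier results of these data known. Among 16 tested genes of other matricellular families (among them Sparc-like proteins, spondins, osteopontin and the CCN proteins), 2 were higher and 4 lower at 2 weeks of bleomycin, and 8 were higher and 2 lower at 4 weeks. After recovery 6 were higher at 6 weeks and 4 at 10 weeks, with 0 lower. Over all tested genes 16.7% and 17.9% were called at 2 and 4 weeks of bleomycin, and 5.04% and 3.05% at 6 and 10 weeks of recovery. The lists here and below were not tested against these shares. The gene with the largest rise was Spp1, which encodes osteopontin, with log2 fold changes of 2.83 (SE 0.16) and 3.64 (SE 0.16) at 2 and 4 weeks of bleomycin. Spon2, which encodes a secreted spondin, fell by 1.83 and 2.45 on the log2 scale. Ccn3, a member of the CCN family, was higher by 3.14 (SE 0.23) after 6 weeks and 2.14 (SE 0.21) after 10 weeks of recovery. Tnr, the tenascin known from the nervous system, was near the floor, with a median normalized count of 3 in saline skin and 12.1 at 4 weeks of bleomycin. At that low level it was higher by 1.76 (SE 0.36, limma adjusted p = 0.00013) at 4 weeks, the direction of Tnc there and against Tnxb.

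Of 20 receptor genes for these proteins, 2 were higher and 0 lower at 2 weeks, and 4 were higher and 1 lower at 4 weeks of bleomycin, while 0 were called at either recovery time. They included Itga4, an integrin subunit of leukocytes, at 1.36 (SE 0.15) at 2 weeks, and Tlr4, the innate receptor that binds tenascin-C, at 0.97 (SE 0.13). Itga5, a subunit of the fibronectin receptor, was at 0.91 (SE 0.13) and Ptprz1, a receptor phosphatase for tenascins, at 0.76 (SE 0.16) at 4 weeks. Of 18 tested matrix partners and processing enzymes, 0 were higher and 6 lower at 2 weeks, 3 higher and 1 lower at 4 weeks, 5 higher after 6 weeks of recovery and 1 higher after 10 weeks. Col14a1, a fibril-associated collagen, was at -1.38 (SE 0.21) and -1.19 (SE 0.21) under bleomycin and at 1.05 (SE 0.24) after 6 weeks of recovery. Col12a1, encoding the related collagen XII, was at 1.70 (SE 0.36) at 4 weeks, in the opposite direction to both Tnxb and Col14a1. The counts of Col12a1 were low, with medians of 13.2 in saline skin and 54.9 at 4 weeks, where Col14a1 had medians of 885 and 425. Fn1, encoding fibronectin, was at -1.13 (SE 0.19) at 2 weeks and at 0.82 (SE 0.22) after 6 weeks of recovery. Lox, encoding lysyl oxidase, was at 1.02 (SE 0.13) at 4 weeks of bleomycin and 1.1 (SE 0.15) after 6 weeks of recovery.

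Of 20 inducers and activators, among them TGF-beta and interleukin signalling genes and transcription factors, 0 were higher and 1 lower at each of 2 weeks, 4 weeks and 10 weeks of recovery, and 2 were higher after 6 weeks of recovery. These were Tgfb3, a TGF-beta ligand, at 0.75 (SE 0.16), and Scx, the tendon transcription factor, at 0.61 (SE 0.15). Tgfbr2, a TGF-beta receptor, was at -0.63 (SE 0.13) at 2 weeks, and Il13ra2, the decoy receptor for interleukin-13, at -0.91 (SE 0.20) at 4 weeks.

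Within groups, mice with more of one gene often had more of another. Deviations from the group means on the log2 scale were correlated over 44 mice for 45 pairs of genes, with 100000 permutations within groups. The adjusted permutation p of Pearson's r was under 0.05 for 22 pairs, each of them positive, and for 21 of these that of Spearman's rho was too. How often pairs of other genes pass was not examined. The count was not repeated without saline mouse 1 and mouse 2 of the 2-week group. Without them r fell from 0.51 to 0.31 for Tnn with Thbs3 and from 0.63 to 0.41 for Thbs2 with Thbs3. It rose from 0.69 to 0.75 for Tnc with Thbs1. The strongest was Tnxb with Thbs3 (r = 0.76, rho = 0.54, permutation p = 1e-05 and 0.00092, adjusted p = 0.00045 and 0.00345). A p of 1e-05 is the smallest that the permutations can give. Leaving out the 2 mice farthest from the median of Tnxb gave r = 0.64 for this pair. The same r was found without saline mouse 1 and mouse 2 of the 2-week group. Within single groups its r was 0.87 in saline, 0.98 at 2 weeks and 0.11 at 4 weeks of bleomycin, and -0.20 and 0.33 at 6 and 10 weeks of recovery, so it was high in the saline and 2-week mice and low in the other 3 groups.

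Tnc and Thbs1, which were both higher at 4 weeks, were correlated at r = 0.69 (rho = 0.77, permutation p = 4e-05 and 1e-05, adjusted p = 0.00045 and 0.000225). In this pair r was 0.64 without the 2 farthest mice, and it lay between 0.52 and 0.90 in all 5 groups. Tnn and Thbs2 gave r = 0.73 (rho = 0.66, permutation p = 2e-05 and 7e-05, adjusted p = 0.00045 and 0.000787), with 0.78 and 0.90 in the saline and 2-week groups but 0.28 and 0.05 at 4 weeks and at 10 weeks of recovery. Tnxb and Thbs2 fell from r = 0.70 to 0.44 without the 2 farthest mice, and also to 0.44 without saline mouse 1 and mouse 2 of the 2-week group. Comp reached no adjusted p of r under 0.05 with any other member, and its highest r was 0.30. By Spearman's rho it passed with Sparc (rho = 0.36, adjusted permutation p = 0.0385). Tnc and Tnxb, which moved in opposite directions at 4 weeks of bleomycin, had r = 0.01.

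**Figure D4:**
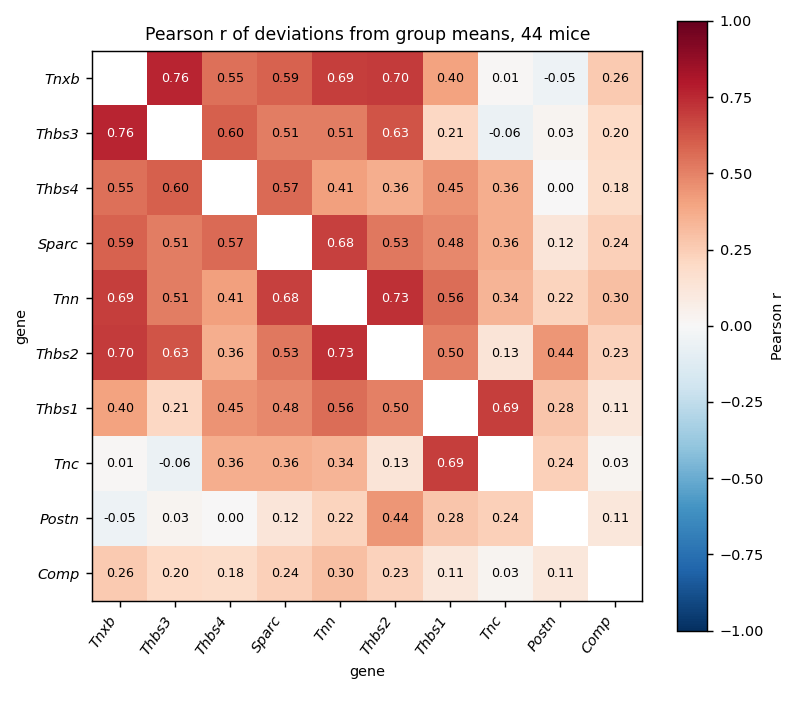
Pearson r of the deviations from group means (log2 scale, 44 mice) for each pair of the 10 genes, coloured from -1 to 1. Tnxb with Thbs3 is highest at 0.76, Tnc is paired with Thbs1 at 0.69, and the rows of Postn and Comp are pale.

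The genes whose deviations were most like those of each member were listed over all tested genes, with no test. Mice of a group differed in depth and in the levels of cell markers, and the part of such differences in these correlations was not tested. Tnxb was most like Aebp1 (r = 0.92), Tns2 (0.91) and Lamb2 (0.90), and Sparc was most like the collagen genes Col3a1 (0.92) and Col1a2 (0.92) and Pcolce (0.91), which encodes an enhancer of procollagen processing. Thbs3 was nearest to Pkd2 (0.85), Cd34 (0.83) and Sned1 (0.83), and Thbs4 to Col5a3 (0.76), Loxl2 (0.72) and Bicc1 (0.72). Tnc was nearest to Prep (0.87), Sorcs2 (0.87) and Enc1 (0.85), and Thbs1 to Lima1 (0.84) and Actn1 (0.84), both of which encode actin-binding proteins, and Fam167a (0.83). Tnn was nearest to Col6a1 (0.88), Egflam (0.84) and Ptprm (0.83). Thbs2 was nearest to Ccbe1 (0.87), Enpp3 (0.86) and Pam (0.85). These values fell to between 0.66 and 0.72 without the 2 farthest mice, and likewise without saline mouse 1 and mouse 2 of the 2-week group. Postn had lower values, with C1qtnf3 (0.70), Itgav (0.64), which encodes a subunit of its integrin receptors, and Col8a1 (0.64). Comp had the lowest, with Ctnnd2 (0.52), Adamts8 (0.51) and Idh2 (0.49).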

How the data were processed

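RNA-seq of back skin from 44 mice was analysed in 5 groups set by the sample labels. Per the labels and the methods of the study, libraries were stranded and made from mRNA (TruSeq), sequenced as 50 bp paired-end reads and aligned to mm10 with STAR 2.4.0. The authors divided the gene counts of each mouse by a DESeq2 (1.12.3) size factor and deposited the resulting signal as normalized counts. How reads were assigned to genes (tool, annotation, use of strand) is not given in the sources used here, so overlapping genes are uncertain. A symbol was found for 42929 of 43411 genes (98.9%). The normalized counts give whole reads (100.0% of values within 0.1 of a whole multiple of the value of 1 read, which lay between 0.73 and 1.3). Recovered reads on genes were 8509094 to 15285577 per mouse, with a median of 11310008.

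Differential expression was tested in R 4.3.3 by limma 3.58.1 with a trended variance. Values entered as log2(normalized count + 1), 17037 genes had a mean above 3, and all groups shared the fit. Fold changes on that scale understate those of genes with low counts. Genes were called at a fold change above 1.5 and a Benjamini-Hochberg adjusted p below 0.05 over all genes tested, in 4 comparisons with saline, which share the saline mice, and 3 direct comparisons. Alternatives were edgeR 4.0.16 (quasi-likelihood) and DESeq2 1.42.0 on recovered reads, a block for the replicate number, fits of only the groups compared, trimmed-mean rescaling, a pseudocount of 0.1, no filter, no fold change threshold, and a fit without the 2 mice with the lowest correlation with their group. Leaving out saline mouse 8, and each of the 44 mice in turn, was added after the data were seen. Same-numbered mice of different groups are different animals. The tests were tried on simulated data first. Correlations used deviations from group means with 100000 permutations within groups. The genes named are the 10 members, the 3 genes most correlated with each, up to 4 called genes of each list by size of change, and marker genes. The members and all lists were chosen with earlier results of these data known. Promoters were read from RefSeq (GRCm38.p6) and gene positions from GENCODE M21 (GRCm38), whose exons gave the lengths. Proteins were not analysed here. Scripts ran in Python 3.11.15 (scipy 1.17.1, numpy 2.4.6, pandas 2.3.3, matplotlib 3.10.9).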

Additional observations from a re-analysis of the deposited data

Results flagged for a closer look

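The lowest and the highest mouse were examined for each of the 10 genes in each of the 5 groups, 50 sets of values in all. An outlier rule for single mice (Dixon) flagged 2 of these sets. Chance flags about 1 in 20 such sets. Saline mouse 8 had 4100 normalized counts of Thbs1, where the next highest saline mouse had 1329. Mouse 7 of the 4-week bleomycin group had 317 normalized counts of Thbs4, where the next highest mouse had 203. Both are values of single mice, and both mice were kept in the main comparisons. The rule can miss a group in which 2 mice are high. After 10 weeks of recovery mice 6 and 8 had 5142 and 3927 normalized counts of Thbs1, where the next highest mouse had 1945. This set was not flagged.

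Tnn differed between the bleomycin time points when these were compared directly, with a log2 fold change of 1.18 (SE 0.31, limma adjusted p = 0.0177) for 4 weeks against 2 weeks. By limma with all groups it was the only one of the 10 genes called in either of the direct comparisons within a phase, namely 4 with 2 weeks of bleomycin and 10 with 6 weeks of recovery.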

How the results depend on the processing

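Of 700 values for single genes under the 10 alternatives, 660 kept their direction and their side of the threshold, 20 passed it newly, 9 no longer passed it, and 11 turned direction, all of them values that were not called in either fit. At 2 weeks of bleomycin edgeR and DESeq2 each gave -0.01 for Tnc and -0.06 for Thbs1. At 10 weeks of recovery both gave -0.01 for Thbs2, and the fit without the 2 mice with the lowest correlations gave -0.09 for Thbs2 and -0.01 for Tnxb. With the replicate block, 6 weeks of recovery against bleomycin at 4 weeks gave -0.00 for Postn, 0.06 for Tnn and 0.08 for Thbs1. The pseudocount of 0.1 and the rescaling by trimmed means changed 0 calls of the 10 genes, and the rescaling moved the median over all genes by at most 0.01 on the log2 scale. The cause of these changes was not tested, except that dropping the fold change threshold can only add calls. Without that threshold 6063 of all genes were called at 2 weeks and 6242 at 4 weeks of bleomycin, 1547 and 994 at 6 and 10 weeks of recovery, 956 between 4 and 2 weeks, and 4260 when 6 weeks of recovery were set against bleomycin at 4 weeks. Against 519 of all genes at 10 weeks of recovery, 326 were called with only the groups compared. Between 10 and 6 weeks of recovery 15 genes were called, and 59 with only the groups compared, 63 with DESeq2 and 58 without these 2 mice.

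Of the 10 genes, 1 was called at 6 weeks of recovery, against 2 without the fold change threshold, 2 with DESeq2, 2 without saline mouse 8, 0 with no filter and 0 without the 2 mice with the lowest correlations. At 10 weeks of recovery 1 was called, against 0 with no filter, with only the groups compared and with edgeR. Between 4 and 2 weeks 1 was called, against 2 without the fold change threshold, with only the groups compared (Tnc and Thbs1, without Tnn) and with DESeq2 (Tnn and Tnc). Between 10 and 6 weeks of recovery 0 were called, against 1 (Sparc) with only the groups compared, with DESeq2 and without these 2 mice. Leaving out single mice gave 3 to 4 members called at 2 weeks and 5 to 6 at 4 weeks of bleomycin, 0 to 2 at 6 weeks and 0 to 1 at 10 weeks of recovery, 1 to 3 between 4 and 2 weeks, and 4 in each case when 6 weeks of recovery were set against bleomycin at 4 weeks.

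The mean correlation of same-numbered mice lay between -0.04 and 0.12. It was not compared with that of differently numbered mice, so whether the numbers mark a shared factor was not tested. With the replicate block, 7 members were called at 4 weeks of bleomycin, with Tnn added (0.65, limma adjusted p = 0.0464), 4 at 6 weeks of recovery and 1 (Sparc) between 10 and 6 weeks of recovery. The number of mice in each group limits what could be called.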
